A study of Mus musculus with 18 samples.

Results

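The shift of the knockout effect between 6 and 10 weeks of age was measured for every gene of the left ventricle in mice labelled as lacking muscle LIM protein (MLP). For each gene it is the log2 difference of knockout (KO) and wild type (WT) at 10 weeks minus the same difference at 6 weeks. A gene was called when this interaction had a Benjamini-Hochberg adjusted p under 0.05 in edgeR's quasi-likelihood test, and 981 of 15256 genes tested (6.43%) were called, of 49315 genes in the tables. The shift was positive for 530 of them (3.47% of genes tested) and negative for 451 (2.96%). This balance depended on scaling: with library totals in place of TMM factors 269 were positive and 1054 negative, 20.3% positive against 54.0%, and the median shift of all genes moved from 0.00413 to -0.22. Because the interaction equals the KO change from 6 to 10 weeks minus the WT change, either genotype can bring it about. WT was said to carry a shift where the fitted WT change was at least 2 times the size of the KO change, KO where the reverse held, and both otherwise.

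Muscle LIM protein, encoded by Csrp3, sits at the Z-disc of the cardiomyocyte, where the thin filaments of neighbouring sarcomeres are anchored and where stretch is sensed. Mice without it are a standard model of dilated cardiomyopathy, in which the chamber widens, wall stress rises and the muscle re-expresses foetal genes. The interaction asks which differences between the genotypes grew, shrank or reversed over these weeks of young adult life.

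The comparison used 12 libraries of total RNA from the mid wall of the left ventricle, 3 each of WT at 6 weeks, WT at 10 weeks, KO at 6 weeks and KO at 10 weeks. All were labelled male and of the 129SVE background, and the KO labels read MLP KO, with no further allele or agent named. Libraries of WT and KO hearts at 3 weeks, 3 of each, stayed out of the fit and served only for levels. Whether WT and KO animals were littermates, and whether each library came from its own animal, was not stated in the sources used here. The p-values therefore measure the spread between these libraries. Every genotype and age came as its own group of 3 libraries. A change with age therefore cannot be told apart from any other difference between the groups, such as cohort or harvest. Rises and falls with age, as given below, are differences between such groups.

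Totals ran from 15873296 to 23001047 counts over the 12 libraries. Levels are counts scaled to the library total (CPM), given for replicates 1, 2 and 3 in that order. With library totals the median log2 KO change of all genes was -0.23, against -0.0032 with TMM factors. Falls in KO from 6 to 10 weeks therefore look larger in CPM than in the fit. Csrp3 (ENSMUSG00000030470, GRCm38 chromosome 7, 48830398 to 48848033, minus strand) was not lower in the KO libraries. It stood at 1414, 1251 and 1366 CPM in WT and 2502, 1896 and 1929 CPM in KO at 6 weeks, and at 1014, 1114 and 981 CPM in WT and 2494, 2893 and 1425 CPM in KO at 10 weeks. Its shift was 0.73 (SE 0.35, adjusted p = 0.24). The deleted part of the gene was not stated in the sources used here, and counts over the whole gene cannot show whether that part was present. The genotypes therefore rest on the labels, and KO means a library labelled so. Summed markers of ventricular cardiomyocytes lay between 90665 and 107602 CPM in the 12 libraries. KO replicate 3 at 6 weeks and KO replicate 1 at 10 weeks also held atrial transcripts, with 469 and 1029 CPM of the atrial light chain gene Myl4, which stayed at or under 21.0 CPM in the other 10. KO replicate 3 at 6 weeks held 127 CPM of Xist, the RNA of the inactive X chromosome, beside 25.3 CPM of the Y-linked gene Ddx3y. Xist was at or under 1.61 CPM in the other 11 libraries. Without the 2 libraries rich in Myl4, 1014 genes were called, 671 of the 981 among them. Without KO replicate 3 at 6 weeks 609 genes were called, 559 of the 981 among them.

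Each genotype carried a large share of the shift. WT carried 310 of the 981 genes (192 positive, 118 negative), KO carried 374 (198 positive, 176 negative), and 297 were carried by both in opposite directions. No called gene had both genotypes moving the same way within the 2-fold limit, although 23.2% of all genes tested did. By that definition the shift of such a gene is smaller than its change in either genotype, so a call was unlikely from the outset. Among all genes tested, WT had the larger part for 26.9%, KO for 33.6%, and 16.3% moved in opposite directions. The change with age passed its own test for 1490 genes in WT (9.77%) and for 2099 in KO (13.8%). Of the 981 genes, 350 had a called change in WT only, 451 in KO only, 92 in both and 88 in neither.

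The same genes can be sorted by when KO and WT differed. KO differed from WT at 6 weeks for 3859 genes tested (25.3%) and at 10 weeks for 4717 (30.9%). Of the 981, the genotype effect was called at 10 weeks only for 463, at 6 weeks only for 266, at both ages for 239 and at neither for 13. Among the 239, the effect had opposite signs at the 2 ages for 86, was larger at 10 weeks for 109 and smaller for 44. Genes carried by KO mostly had an effect at 10 weeks only (214 of 374), while those carried by WT were divided between 6 weeks only (118 of 310) and 10 weeks only (110). The shift was over 2-fold for 488 of the 981 and over 4-fold for 158. Of those 158 genes, WT carried 72, KO 40 and both 46.

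**Figure D1:**
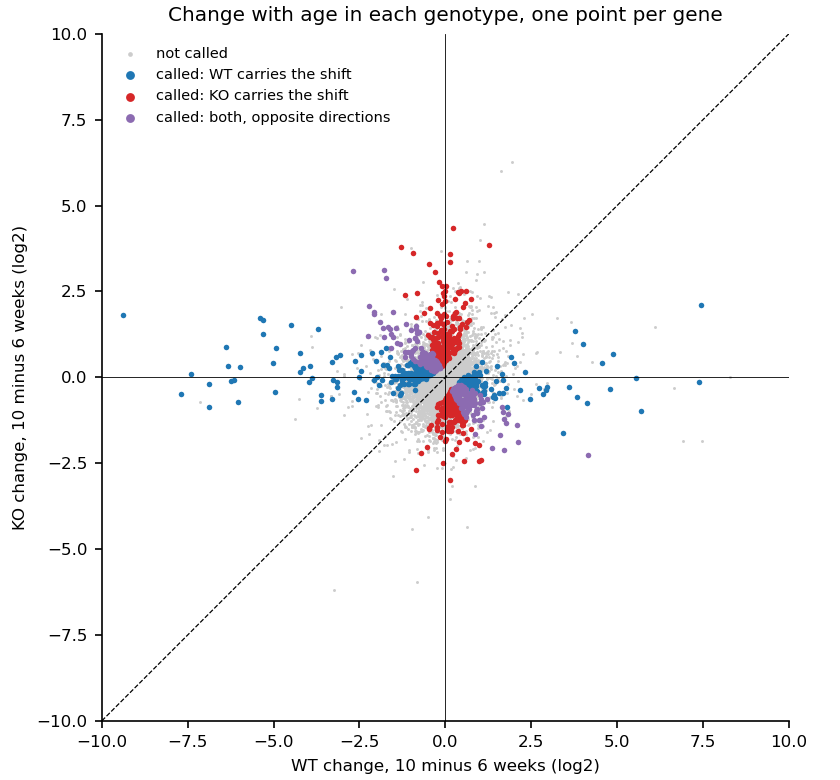
Each point is 1 of 15256 genes, with the fitted log2 change from 6 to 10 weeks in WT on the horizontal axis and in KO on the vertical axis. Distance from the dashed line of equal change is the shift, and the 981 called genes are coloured by carrier (310 WT, 374 KO, 297 both in opposite directions). The coloured sectors follow from how carriers were defined; points far to the left or right changed strongly in WT, those far up or down in KO.

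The gene with the smallest p was carried by WT. It was Kcnj14 (ENSMUSG00000058743, GRCm38 chromosome 7, 45816460 to 45824782, minus strand), an inwardly rectifying potassium channel, with 58.8, 64.1 and 60.0 CPM in WT at 6 weeks and 0.599, 0.777 and 1.01 CPM at 10 weeks. In KO it had 12.1, 9.26 and 9.54 CPM at 6 weeks and 7.12, 9.88 and 7.37 CPM at 10 weeks. The WT libraries at 3 weeks (35.1, 41.8 and 46.5 CPM) lay nearer to those at 6 weeks, and every WT library at 10 weeks was far below them. The shift was 6.15 (SE 0.29, adjusted p = 1.0e-09). KO minus WT went from -2.63 at 6 weeks to 3.52 at 10 weeks on the log2 scale, without a called change in KO. Kcnj14 lies on the same chromosome as Csrp3, and so does Bcat2, described below. The part of their position relative to Csrp3 in these shifts was not tested.

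Ptprn2 (ENSMUSG00000056553, GRCm38 chromosome 12, 116485720 to 117276849, plus strand), a phosphatase-like protein of secretory granules, had the largest fitted shift among named genes. It stood at 16.3, 15.9 and 17.1 CPM in WT at 6 weeks and had 1 count summed over the 3 WT libraries at 10 weeks, against 1009 at 6 weeks. The ratio of the 2 ages in WT was 916, with a 95% counting interval of 164 to 36234. KO was low at both ages, with 6 counts over its 3 libraries at 6 weeks and 19 at 10 weeks. The order of the genotypes was therefore reversed at 10 weeks, when both were low. Pygl (ENSMUSG00000021069, GRCm38 chromosome 12, 70190811 to 70231488, minus strand), the liver form of glycogen phosphorylase, also fell in WT: it had 76.8, 51.8 and 60.9 CPM in WT at 6 weeks, 4.34, 4.16 and 3.70 CPM at 10 weeks, and between 4.18 and 7.92 CPM in the 6 KO libraries. Its shift was 4.28 (SE 0.29, adjusted p = 2.5e-07).

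For Fam81a (ENSMUSG00000032224, GRCm38 chromosome 9, 70088511 to 70142560, minus strand), by contrast, WT and KO overlapped at 6 weeks (49.3, 54.8 and 51.4 CPM and 44.3, 49.8 and 51.0 CPM). At 10 weeks WT stood at 8.44, 8.11 and 8.06 CPM and KO at 27.2, 32.4 and 31.3 CPM, and the groups did not overlap. Its shift was 2.21 (SE 0.15, adjusted p = 1.2e-07). Bcat2, which starts the breakdown of branched-chain amino acids in muscle, fell in WT from 223, 213 and 228 CPM to 86.7, 95.2 and 95.9 CPM and had a shift of 1.45 (SE 0.16, adjusted p = 4.7e-05). Its KO levels ran from 158 to 237 CPM over both ages.

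Other WT-carried genes appeared in WT at 10 weeks and lowered the knockout effect. Hrasls (ENSMUSG00000022525, GRCm38 chromosome 16, 29209695 to 29230531, plus strand), a phospholipid-modifying enzyme, had 0.994, 0.913 and 0.824 CPM in WT at 6 weeks and 25.1, 23.7 and 31.6 CPM at 10 weeks, against 6.10, 6.90 and 5.72 CPM and 9.01, 9.37 and 7.09 CPM in KO. KO was thus above WT at 6 weeks and below it at 10 weeks, with a shift of -4.20 (SE 0.28, adjusted p = 1.2e-07). Eps8l1 (ENSMUSG00000006154, GRCm38 chromosome 7, 4460674 to 4480487, plus strand), a relative of the actin regulator EPS8, reached 25.7, 14.0 and 21.7 CPM in WT at 10 weeks and stayed under 1 CPM in the other 15 libraries of the series. Its shift was -6.65 (SE 0.61, adjusted p = 5.5e-06).

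Rnf157, a RING-type ubiquitin ligase, was at 7.74, 7.11 and 7.45 CPM in WT at 10 weeks against 0.785, 1.78 and 1.49 CPM at 6 weeks (shift -3.07, SE 0.39). Unc5a, a netrin receptor, and Cnmd, chondromodulin, were also highest in WT at 10 weeks, at 2.60, 1.89 and 1.74 CPM and 4.14, 5.61 and 5.38 CPM. In the other libraries of the fit Unc5a stayed at or under 0.567 CPM and Cnmd at or under 1.28 CPM. Their shifts were -4.17 (SE 0.90) and -3.03 (SE 0.67), and Cnmd lost its call without KO replicate 1 at 6 weeks. Ighg2c, an immunoglobulin heavy-chain constant region, had no counts in WT at 6 weeks and 1.15, 1.5 and 0.896 CPM at 10 weeks, at least 19.2-fold higher by the 95% counting interval (66 counts against 0) and 24.2-fold higher against a floor of 3 counts over the group. In KO it stood at 0.348, 0.575 and 0.715 CPM and 2.52, 1.43 and 2.11 CPM.

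**Figure D2:**
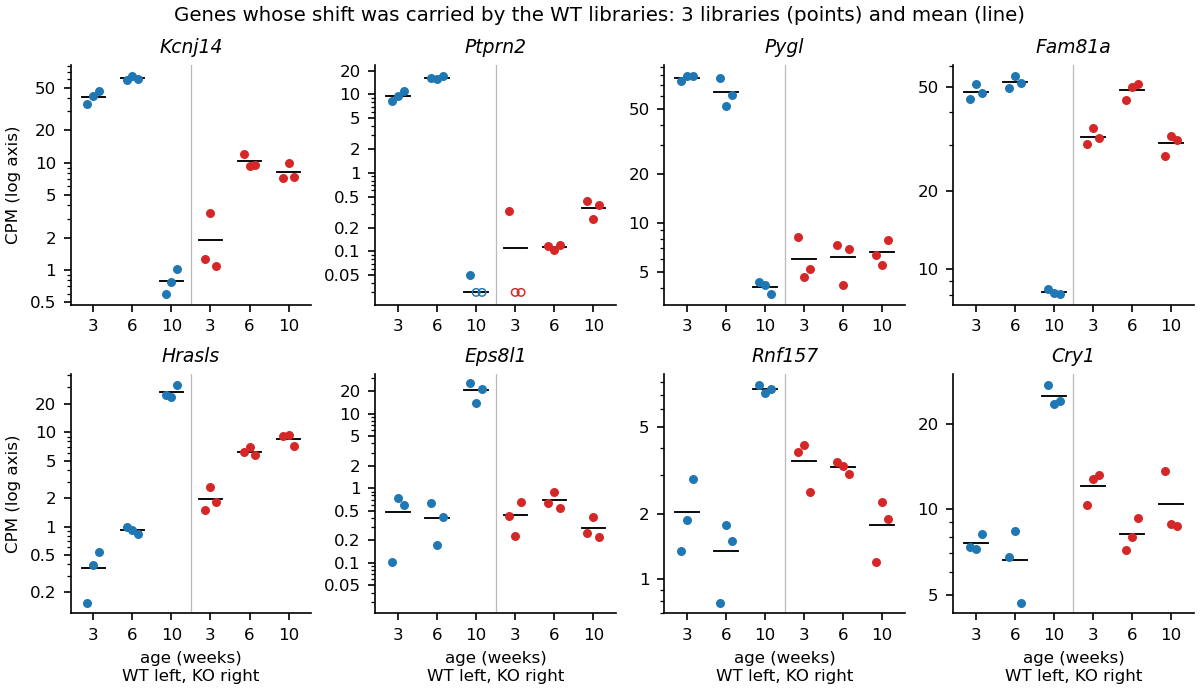
Levels in CPM on a log axis of 8 genes whose shift was carried by WT, in all 18 libraries by age in weeks, with WT on the left and KO on the right. Points are libraries, lines are means of 3, and open points at the lower edge are libraries with no counts. WT at 10 weeks stands apart from WT at 6 weeks in every panel, and the KO change between those ages is the smaller one.

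Several of the largest WT-carried shifts belong to genes with near-identical copies, and their counts are uncertain because reads can be split or lost between copies. Hist1h2al, a histone pseudogene, fell in WT from 9.10, 10.3 and 11.5 CPM to 0.0499, 0.111 and 0 CPM, with 12.3 to 17.3 CPM in KO at both ages (shift 7.49, SE 0.38). Hmga1b and Rpl15-ps2 showed the same pattern, with 0.499, 0.278 and 0.616 CPM and 0.0499, 0.0555 and 0.112 CPM in WT at 10 weeks against 3.49 to 9.93 CPM in the other 9 libraries of the fit. Tpm3-rs7, a tropomyosin-like retrocopy, was at 14.2, 17.8 and 18.5 CPM in WT at 6 weeks and under 1 CPM in the other 9. The class I histocompatibility genes H2-Q5 and H2-Q6 rose in WT to 3.10, 3.0 and 4.09 CPM and 9.64, 8.22 and 10.8 CPM, which narrowed a large excess in KO (shifts -3.34, SE 0.45, and -3.04, SE 0.32). Slfn8, with close relatives in its family, also shifted down (-3.25, SE 0.74), and lost its call without WT replicate 1 at 10 weeks. Amy1, a salivary-type amylase with close copies, was carried by both genotypes. It rose in WT from 3.19, 3.13 and 4.12 CPM to 11.1, 12.8 and 12.8 CPM and fell in KO from 6.5, 7.06 and 4.65 CPM to 3.65, 2.10 and 1.66 CPM (shift -2.90, SE 0.36). Pseudogenes made up 21 of the 310 genes carried by WT (6.77%), 1 of the 374 carried by KO and 2.67% of all genes tested.

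Genes nearly off in a group were counted separately, as a description, since the choice itself asks for a large difference between groups. In all, 56 genes had every library of at least 1 of the 4 groups at or under 0.2 CPM and a mean of at least 2 CPM in another group, and 15 of them were called. Of these 13 were low in WT at 10 weeks alone, 8 of them called, and 6 were low in WT at 6 weeks alone, 3 of them called. There were 2 low in KO at 6 weeks alone and 7 in KO at 10 weeks alone, with 1 and 0 called. A further 11 were low in KO at both ages and 10 in WT at both ages, with 1 and 0 called, and 7 had other combinations, with 2 called. For 234 of the 310 genes carried by WT (75.5%) the WT mean at 3 weeks, on a log2 scale with 0.5 CPM added, was nearer to that at 6 weeks than at 10 weeks. The share for WT means was 55.9% in called genes carried by KO and 57.6% in those carried by both. It was not measured over all genes tested. By chromosome, genes carried by WT ranged from 0.221% of those tested on chromosome 16 (1 of 452, Hrasls) to 3.98% on chromosome 12.

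Among genes carried by KO, Fkbp5 (ENSMUSG00000024222, GRCm38 chromosome 17, 28399095 to 28517524, minus strand), a co-chaperone that restrains the glucocorticoid receptor and is itself induced by it, had the smallest p. It rose in KO from 12.3, 15.2 and 18.6 CPM at 6 weeks to 90.0, 62.9 and 62.7 CPM at 10 weeks. In WT it fell from 40.1, 28.0 and 26.9 CPM to 17.1, 16.4 and 19.9 CPM, so KO was below WT at 6 weeks and above it at 10 weeks without overlap at either age. The shift was 3.29 (SE 0.28, adjusted p = 1.2e-05). At 3 weeks the KO libraries were already at 87.9, 65.0 and 77.7 CPM, so KO was lowest at 6 weeks. For 258 of the 374 genes carried by KO (69.0%) the KO mean at 3 weeks was nearer to that at 6 weeks than at 10 weeks, and Fkbp5 is among the other 116. The share for KO means was near this in called genes carried by WT (64.8%) and by both (59.6%). It was not measured over all genes tested.

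Arid5a (ENSMUSG00000037447, GRCm38 chromosome 1, 36307733 to 36324029, plus strand), an RNA-binding protein that stabilises inflammatory messenger RNAs, rose in KO from 10.4, 10.6 and 16.4 CPM to 43.3, 40.0 and 57.5 CPM while WT stayed between 7.27 and 9.68 CPM. Its shift was 2.24 (SE 0.24, adjusted p = 2.7e-05). Cdkn1a (ENSMUSG00000023067, GRCm38 chromosome 17, 29090979 to 29100722, plus strand), the cell-cycle inhibitor p21, rose in KO from 11.8, 12.8 and 22.0 CPM at 6 weeks to 107, 90.6 and 69.9 CPM at 10 weeks, against 36.8 to 46.4 CPM in WT at those ages. Its shift was 2.95 (SE 0.30, adjusted p = 1.2e-04). Agt, the angiotensinogen precursor, rose in KO from 1.28, 0.994 and 2.80 CPM to 5.86, 8.55 and 7.87 CPM and fell in WT, with a shift of 3.56 (SE 0.46, adjusted p = 2.0e-04).

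Other KO-carried genes had no called change in WT. Tmem144, a membrane protein gene, rose in KO from 24.6, 28.4 and 25.7 CPM to 61.2, 53.3 and 57.9 CPM, with 24.1 to 30.0 CPM in the 6 WT libraries (shift 1.17, SE 0.14). Mafk, a small Maf transcription factor, rose in KO from 73.5, 72.9 and 81.4 CPM to 174, 176 and 124 CPM (shift 1.51, SE 0.19). The transcription factor gene Pou3f1 stood at or under 0.261 CPM in WT at both ages and rose in KO from 0.813, 1.05 and 1.25 CPM to 12.1, 15.1 and 9.42 CPM, an 11.9-fold ratio with a 95% counting interval of 8.99 to 15.9. Nrep, a neuronal regeneration-related protein also found in fibroblasts, fell in KO from 26.4, 36.3 and 36.5 CPM to 10.2, 9.93 and 10.7 CPM, below WT at 10 weeks (28.0, 19.5 and 28.2 CPM). Its shift was -1.65 (SE 0.22, adjusted p = 2.4e-04). Gal3st2c fell in KO from 4.01, 5.65 and 3.70 CPM to 0.315, 0.154 and 1.72 CPM with a shift of -3.43 (SE 0.60). Foxo6 (-2.96, SE 0.76) lost its call in 9 of the 12 fits that left out a library.

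Among genes that both genotypes carried, Grip2 (ENSMUSG00000030098, GRCm38 chromosome 6, 91761509 to 91827250, minus strand), a scaffold protein that binds glutamate receptors, had the smallest p. At 6 weeks it stood at 39.2, 39.2 and 44.5 CPM in WT and 35.8, 38.1 and 34.4 CPM in KO, with no called difference. By 10 weeks it had risen to 80.6, 64.9 and 72.7 CPM in WT and fallen to 12.1, 12.4 and 14.2 CPM in KO. The shift was -2.09 (SE 0.15, adjusted p = 2.8e-07). Usp40, a deubiquitinase, also rose in WT and fell in KO, from 20.1, 22.2 and 22.1 CPM to 35.8, 34.8 and 32.6 CPM in WT and from 32.1, 35.6 and 32.4 CPM to 21.0, 18.9 and 21.6 CPM in KO (shift -1.16, SE 0.13).

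In the other direction, Serpina3n, an acute-phase protease inhibitor, fell in WT from 16.2, 24.7 and 17.9 CPM to 6.84, 5.94 and 6.83 CPM and rose in KO from 8.88, 5.44 and 8.64 CPM to 20.2, 13.3 and 13.1 CPM. The order of the genotypes reversed, and the shift was 2.82 (SE 0.31, adjusted p = 4.6e-05). Bcl2l1, which encodes the survival factor Bcl-xL, also reversed, from 64.8, 54.4 and 59.7 CPM in WT and 36.5, 33.5 and 40.1 CPM in KO at 6 weeks to 34.3, 36.3 and 36.6 CPM and 50.2, 40.7 and 49.9 CPM at 10 weeks. Its shift was 1.32 (SE 0.15, adjusted p = 7.2e-05). Gstm2, a glutathione transferase, and Adh1, an alcohol and retinol dehydrogenase, moved alike, with shifts of 1.22 (SE 0.15) and 2.43 (SE 0.28). Tent5b, Pak3 and Psca rose in KO and had larger shifts (5.77, SE 0.85, 4.63, SE 0.91 and 4.32, SE 0.92). Psca lost its call in 7 of the 12 fits that left out a library, and Pak3 lost it without WT replicate 2 at 6 weeks. Tent5b lost its call in limma voom.

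Genes known to respond to glucocorticoids had called shifts in the positive direction. Glucocorticoids act through a nuclear receptor that binds DNA as a dimer at an imperfect palindrome, and their targets include feedback regulators, metallothioneins and metabolic genes. Of 16 listed genes tested, 9 had a called positive shift and none a negative one, against 3.47% and 2.96% of all genes tested. Members of this and the other lists were chosen with earlier results of these data known, so such shares are not an independent comparison. The median shift was 1.01, against 0.00413 over all genes, and 12 of the 16 fitted shifts lay above 0 and 4 below. Klf9 and Sgk1 were among those below 0, and Tsc22d3 and Ddit4 lay above 0 without a call. KO carried 3 of the 9, WT 1 and both 5. In KO, 9 rose from 6 to 10 weeks and none fell, and in WT 1 rose and 6 fell. The summed level of the list was 1221, 1224 and 1214 CPM in WT at 6 weeks and 958, 974 and 916 CPM at 10 weeks, and 1535, 1537 and 1575 CPM and 2294, 1789.9 and 1995 CPM in KO. At 3 weeks it was 2087, 1918 and 2179.9 CPM in KO, so KO at 6 weeks was the lowest of the 3 ages.

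Fkbp5 and Cdkn1a, described above, belong to this list, as do the metallothioneins, small metal-binding proteins. Mt1 (ENSMUSG00000031765, GRCm38 chromosome 8, 94179082 to 94180327, plus strand) stood at 60.1, 57.7 and 62.5 CPM in KO at 6 weeks, below WT at 112, 80.1 and 104 CPM. At 10 weeks the order was reversed without overlap, at 134, 115 and 136 CPM against 59.7, 64.3 and 50.1 CPM. Its shift was 2.08 (SE 0.18, adjusted p = 2.2e-06). Mt2 fell in WT from 7.48, 5.0 and 6.69 CPM to 1.95, 1.89 and 1.29 CPM and rose in KO from 14.5, 9.05 and 16.3 CPM to 42.8, 29.1 and 32.2 CPM, with a shift of 3.51 (SE 0.34, adjusted p = 2.1e-05).

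Zbtb16, Klf15 and Glul lay outside the naming rule and were chosen after their values were seen. Zbtb16, a zinc-finger transcription factor, was at 169 ± 10.1 CPM in WT and 37.2 ± 1.62 CPM in KO at 6 weeks and at 39.9 ± 9.29 CPM and 116 ± 53.1 CPM at 10 weeks (SD, n = 3). Its shift was 3.97 (SE 0.45, adjusted p = 9.2e-04). Klf15, a regulator of cardiac amino acid and lipid use, was carried by WT, where it fell by 1.10 on the log2 scale (shift 1.22, SE 0.20). Glul, glutamine synthetase, was higher in KO at both ages and its shift was 0.84 (SE 0.18).

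Promoters of this list are shown because the receptor's site is known. RefSeq promoter windows were matched by symbol for 14 of the 16 genes tested and for 11121 of 15254 symbols tested in all (RefSeq, GRCm38.p6). The core of the palindrome, ACANNNTGT on either strand, was found in the 250 bases before the start of 3 of the 14 (21.4%), against 3.70% of all windows. The 3 were Mt1, Glul and Lcn2. The 200 bases before the start are printed for Mt1 and Glul, 5′ to 3′ on the gene's own strand, with the core in capitals. The match begins 92 bases before the start in Mt1 (chr8:94178889-94179088, plus strand) and 25 bases before it in Glul (chr1:153899729-153899928, plus strand). The core of the interferon-stimulated response element, GAAANNGAA, was in 3 of the 14 windows as well (21.4%, against 6.11% of all windows). Fkbp5 had no palindrome match, and its window lay 31375 bases from the 5′ end of the gene. The printed letters are a description and not a measured binding site.
Mt1: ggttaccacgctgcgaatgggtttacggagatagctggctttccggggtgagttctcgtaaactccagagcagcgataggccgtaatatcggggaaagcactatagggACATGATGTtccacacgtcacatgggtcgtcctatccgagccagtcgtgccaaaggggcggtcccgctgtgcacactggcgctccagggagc
Glul: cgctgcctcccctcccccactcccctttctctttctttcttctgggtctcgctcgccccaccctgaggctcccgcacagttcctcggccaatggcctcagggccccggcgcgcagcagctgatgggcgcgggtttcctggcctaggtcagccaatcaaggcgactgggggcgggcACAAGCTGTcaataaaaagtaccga

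Interferon-induced genes shifted the other way. Type I interferon acts through a receptor and a transcription factor complex that binds the interferon-stimulated response element, and the induced proteins block viral replication. Of 28 listed genes tested, 11 had a called negative shift and none a positive one, against 2.96% and 3.47% of all genes tested. The median shift was -0.99. The median knockout effect went from 1.07 at 6 weeks to 0.06 at 10 weeks. In WT 13 of the 28 rose with age and none fell, and in KO none rose and 5 fell. WT carried 5 of the 11 and both carried 6. Summed levels were 196, 203 and 205 CPM in WT at 6 weeks and 332, 279 and 254 CPM at 10 weeks, against 302, 379 and 347 CPM and 279, 225 and 235 CPM in KO. The genotypes were thus separate at 6 weeks and overlapped at 10 weeks. Without KO replicate 2 at 6 weeks 6 of the 28 were called, and with library totals 17 were.

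Rsad2 (ENSMUSG00000020641, GRCm38 chromosome 12, 26442753 to 26456452, minus strand), the antiviral enzyme viperin, rose in WT from 4.29, 4.43 and 4.89 CPM to 16.9, 14.9 and 11.3 CPM. In KO it stood at 12.5, 15.3 and 14.9 CPM and 11.3, 9.78 and 13.6 CPM, so WT overlapped KO at 10 weeks. Its shift was -1.74 (SE 0.22, adjusted p = 1.7e-04). Ifit3 (ENSMUSG00000074896, GRCm38 chromosome 19, 34583531 to 34588731, plus strand), which binds foreign RNA in a complex with its relatives, rose in WT from 3.98, 4.35 and 3.71 CPM to 9.39, 8.16 and 6.66 CPM and fell in KO from 12.7, 16.7 and 16.0 CPM to 8.19, 8.55 and 10.4 CPM. Its shift was -1.52 (SE 0.23, adjusted p = 7.5e-04). Ifit2 moved alike, with a shift of -1.08 (SE 0.20, adjusted p = 0.0048). Levels of these genes were low throughout, between 3.71 and 24.6 CPM.

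Genes induced by interferon-gamma, which include guanylate-binding proteins and the class I antigen-presentation machinery, also shifted down. Of 23 tested, 8 had a called negative shift and none a positive one, against 2.96% and 3.47% of all genes tested. The median was -0.68, and all 23 fitted values were negative. Gbp3 (ENSMUSG00000028268, GRCm38 chromosome 3, 142560026 to 142573209, plus strand), a guanylate-binding protein, rose in WT from 4.86, 6.0 and 5.77 CPM to 12.7, 10.7 and 9.85 CPM and fell in KO from 13.2, 14.5 and 12.5 CPM to 7.94, 6.19 and 6.32 CPM (shift -1.75, SE 0.22). KO was above WT at 6 weeks and below it at 10 weeks, with no overlap at either age. H2-K1, a class I heavy chain, rose in WT from 87.9, 85.5 and 88.6 CPM to 151, 128 and 144 CPM while KO moved without a call from 178, 222 and 217 CPM to 159, 152 and 147 CPM (shift -0.89, SE 0.15). Gbp4 shifted by -1.33 (SE 0.24). No macrophage marker had a called shift in edgeR (0 of 13, with 3 at an unadjusted p under 0.05, 1 called by DESeq2 and 0 by limma voom). Of all 15256 genes tested, 3563 had an unadjusted p under 0.05 in edgeR with RLE scaling factors. Summed macrophage markers were 341, 294 and 284 CPM in WT at 6 weeks, 279, 245 and 221 CPM in WT at 10 weeks, 215, 266 and 286 CPM in KO at 6 weeks and 214, 166 and 164 CPM in KO at 10 weeks. Their part in the interferon results was not tested. In whole tissue, fewer cells of a type and less RNA per cell cannot be told apart.

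The promoters of 3 members with a match are shown for the response element they share. Its core is GAAANNGAA on either strand, sought in the 250 bases before the start. It was found in 10 of 17 interferon-induced genes with a window (58.8%) and in 11 of 17 interferon-gamma genes (64.7%), against 6.11% of all windows. Among the called genes of these lists it was in 4 of 7 windows (57.1%) and 3 of 5 (60%). Ifit2 and H2-K1, described above, had no match. In each sequence the 200 bases before the RefSeq start are printed, 5′ to 3′ on the gene's own strand (GRCm38.p6), with the core in capitals. Ifit3 (chr19:34583329-34583528, plus strand) holds 3 matches, beginning 155, 121 and 102 bases before the start. Rsad2 (chr12:26456453-26456652, minus strand) holds 1, beginning 119 bases before it. In Gbp3 (chr3:142559844-142560043, plus strand) 2 overlapping matches begin 44 and 38 bases before the start.
Ifit3: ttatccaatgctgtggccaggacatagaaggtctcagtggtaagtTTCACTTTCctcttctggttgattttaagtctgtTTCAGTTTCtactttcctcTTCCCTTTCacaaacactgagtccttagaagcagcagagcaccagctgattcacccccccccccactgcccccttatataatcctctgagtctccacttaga
Rsad2: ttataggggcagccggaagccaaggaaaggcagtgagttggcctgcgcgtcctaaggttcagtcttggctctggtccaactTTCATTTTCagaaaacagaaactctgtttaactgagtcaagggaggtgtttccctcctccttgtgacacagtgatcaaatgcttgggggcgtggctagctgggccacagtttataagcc
Gbp3: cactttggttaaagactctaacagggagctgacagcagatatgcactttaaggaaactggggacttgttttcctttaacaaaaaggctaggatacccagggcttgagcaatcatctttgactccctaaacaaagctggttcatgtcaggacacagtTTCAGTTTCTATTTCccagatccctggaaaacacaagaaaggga

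Sarcomere and Z-disc genes shifted up. Of 32 tested, 12 had a called positive shift and none a negative one, against 3.47% and 2.96% of all genes tested. The median was 0.60. KO carried 6, WT 3 and both 3. Myot, myotilin, a Z-disc protein that cross-links actin, rose in KO from 102, 71.5 and 91.4 CPM to 386, 411 and 292 CPM and in WT from 23.9, 18.9 and 19.3 CPM to 33.2, 39.2 and 32.1 CPM (shift 1.52, SE 0.25, adjusted p = 0.0031). KO was the higher genotype at both ages and rose by more. Lmod2, leiomodin 2, which acts on thin-filament length and was named for its small p from outside the list, rose in KO from 736, 751 and 759.7 CPM to 1547, 1212 and 1172 CPM, against 498 to 682 CPM in WT. Its shift was 1.33 (SE 0.16, adjusted p = 8.7e-05).

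WT carried the shift of Tcap, telethonin, which caps titin at the Z-disc. It fell in WT from 1549, 1351 and 1613 CPM to 481, 582 and 673 CPM and had no called change in KO, at 1738, 2053 and 2053 CPM and 1394, 1449 and 2291 CPM. The shift was 1.4 (SE 0.23, adjusted p = 0.0019). The ventricular light chains Myl2 and Myl3 shifted by 0.59 (SE 0.17) and 0.82 (SE 0.19), and lost their calls in 9 and 5 of the 12 fits that left out a library.

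Stress and foetal genes of the cardiomyocyte were above WT for 16 of 27 tested at 6 weeks and for 20 at 10 weeks, with a median knockout effect of 2.18, and 3.0 respectively. Of the 27, 5 had a called positive shift and none a negative one (median 0.46), against 3.47% and 2.96% of all genes tested. KO carried 4 of the 5. Synpo2l, a stretch-responsive actin-binding protein of the Z-disc, rose in KO from 389.8, 432 and 464 CPM to 1763, 2418 and 914 CPM while WT stayed between 168 and 247 CPM (shift 2.45, SE 0.44, adjusted p = 0.013). The call of Synpo2l was lost without the libraries rich in Myl4. Ccn2, connective tissue growth factor, rose in KO from 165, 119.7 and 181 CPM to 2428, 1959 and 343 CPM, with 49.3 to 138 CPM in WT (shift 4.54, SE 0.91, adjusted p = 0.027).

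KO replicate 3 at 10 weeks was the lowest of its group for both of these genes, and the spread within that group was wide. Nppa, the precursor of atrial natriuretic peptide, was carried by both genotypes: it fell in WT from 443, 425 and 458 CPM to 238, 299 and 185 CPM and was 13471, 7683 and 10070.1 CPM and 9256, 14760.4 and 12906 CPM in KO (shift 1.35, SE 0.34, adjusted p = 0.039). The calls of Ccn2 and Nppa were each lost in 8 of the 12 fits that left out a library. Leaving out each library in turn called between 1 and 6 of the 27, with 1 without WT replicate 3 at 6 weeks, WT replicate 1 or 3 at 10 weeks, KO replicate 2 at 6 weeks or KO replicate 2 at 10 weeks. Xirp1, Abra, Myh7 and Nppb lay outside the naming rule and were chosen after their values were seen. Neither Xirp1 nor Abra is among the 27. Xirp1, an actin-binding protein of the intercalated disc, was at 267 ± 9.60 CPM in KO at 6 weeks and 2650.0 ± 1626 CPM at 10 weeks (SD, n = 3; shift 3.45, SE 0.71, adjusted p = 0.029). Abra, an activator of the actin-MAL-SRF axis, went from 60.6 ± 6.30 to 1027 ± 624 CPM (shift 4.11, SE 0.68, adjusted p = 0.012). Myh7, the slow myosin heavy chain, and Nppb, the precursor of brain natriuretic peptide, shifted by 1.54 (SE 0.39) and 1.6 (SE 0.41). Of the 12 fits that left out a library, Xirp1 and Myh7 were called in 2 each, Nppb in 1 and Abra in all. Summed epicardial and mesothelial markers stood at 16.6, 27.4 and 42.1 CPM and 21.2, 22.8 and 13.2 CPM in WT at 6 and 10 weeks, and at 40.8, 34.2 and 48.8 CPM and 83.0, 55.0 and 37.0 CPM in KO. By the test at each age, 1 of these 9 markers was above WT in KO at 6 weeks and 8 were at 10 weeks. Of all genes tested, 25.3% and 30.9% differed at those ages, in either direction. The median shift of the markers was 1.79, and all 9 fitted shifts were above 0. For the shift edgeR called 0 of 9, with 5 at an unadjusted p under 0.05, 3 called by DESeq2 and 0 by limma voom. Of all 15256 genes tested, 3563 had an unadjusted p under 0.05 in edgeR with RLE scaling factors. The part of these markers in the results above was not tested.

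**Figure D3:**
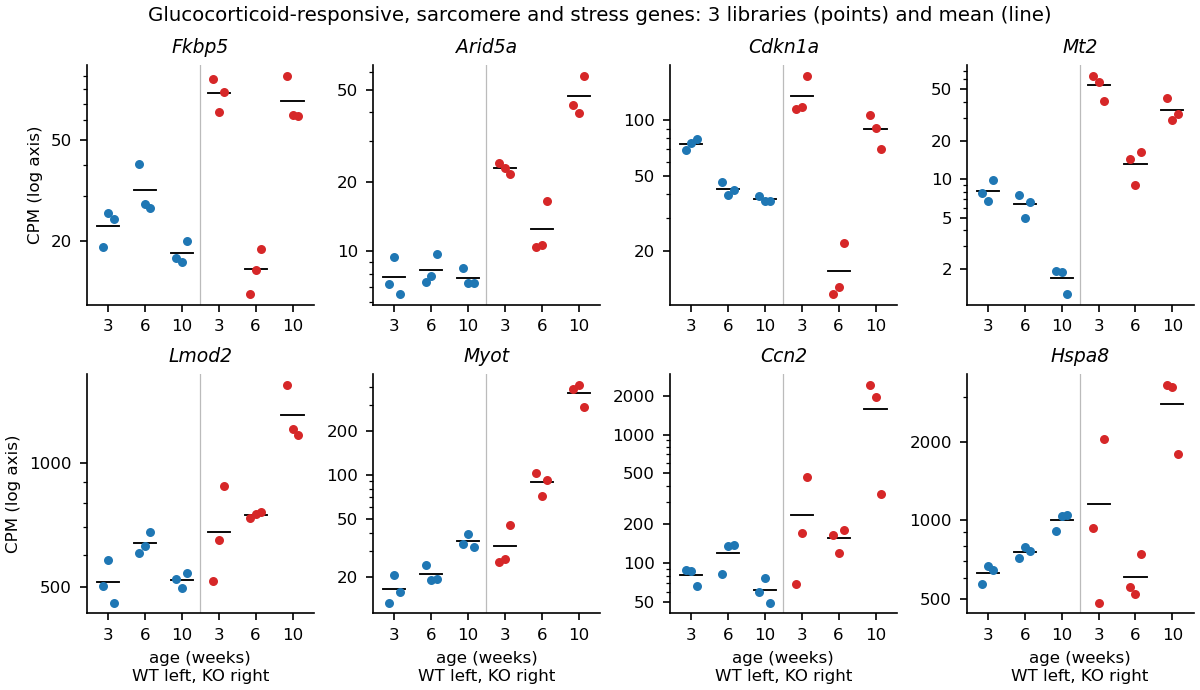
Levels in CPM on a log axis of 8 genes that rose in KO between 6 and 10 weeks, in all 18 libraries by age in weeks, with WT on the left and KO on the right. Points are libraries and lines are means of 3. Fkbp5, Arid5a, Cdkn1a and Mt2 had higher KO means at 3 and 10 weeks than at 6, while Lmod2, Myot, Ccn2 and Hspa8 reached their highest mean in KO at 10 weeks.

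In the lists that follow, counts of called genes stand beside 6.43% of all genes tested. Hspa8, the constitutive cytosolic chaperone, was the 1 called gene among 18 of the cytosolic heat shock list. It rose in KO from 552, 522 and 744 CPM to 3328, 3279 and 1799 CPM (shift 2.05, SE 0.32, adjusted p = 0.0035). Of the 18, 12 rose in KO with age and 3 in WT. Genes of ATF4 and one-carbon stress, which supply amino acids and serine-derived carbon under stress, gave 6 positive calls among 25 (median 0.74). Atf4 itself rose in KO from 102, 99.0 and 105 CPM to 161, 157 and 133 CPM against 95.6, 95.3 and 97.4 CPM and 82.4, 87.9 and 88.2 CPM in WT, and shifted by 0.95 (SE 0.15, adjusted p = 0.0016). Its relative Atf5 fell in WT and rose in KO, with a shift of 1.15 (SE 0.15, adjusted p = 2.4e-04). Of 23 immediate early genes 2 were called: Nr4a3, an orphan nuclear receptor, at 1.80, 2.04 and 2.44 CPM and 36.0, 27.6 and 13.3 CPM in KO (shift 2.60, SE 0.56), and Maff (shift 1.73, SE 0.28). In KO at 3 weeks Nr4a3 had been at 36.1, 99.1 and 95.9 CPM. The call of Nr4a3 was lost in 4 of the 22 alternatives, and that of Hspa8 in the fit of all 18 libraries.

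For nuclear genes of oxidative phosphorylation, which build most of the respiratory chain, the shift lay mainly with WT. All 46 genes tested were lower in KO at 6 weeks by their own test, and 32 were at 10 weeks. In WT 20 of the 46 fell from 6 to 10 weeks and none rose, and in KO 1 rose and none fell. All 46 fitted shifts were positive (median 0.46), and 8 passed the test, 6 of them carried by WT. Of all genes tested, 3.47% had a called positive shift. Cox6a2, a muscle-type subunit of cytochrome c oxidase, fell in WT from 1598, 1363 and 1614 CPM to 1065, 1113 and 1166 CPM, with 819 to 995 CPM in KO (shift 0.65, SE 0.15, adjusted p = 0.014). Cox8b, a second heart-type subunit of that enzyme, had 1329, 801 and 928 CPM and 584, 607 and 616 CPM in WT, and Ndufa3, a subunit of complex I, had 503, 323 and 431 CPM and 254, 241 and 262 CPM. Both were below all 6 WT libraries in KO, and their calls were lost in 8 and 4 of the 12 fits that left out a library.

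These calls were sensitive to scaling. With library totals in place of TMM factors none of the 46 was called, although the median stayed positive at 0.23, and leaving out each library in turn called between 1 and 25, the most without WT replicate 2 at 6 weeks. Of the 13 mitochondrially encoded messenger RNAs edgeR, DESeq2 and limma voom each called 0, with 1 at an unadjusted p under 0.05 in edgeR (median -0.27). All mitochondrially encoded genes together took a share of counts in WT of 12% ± 1.10 at 6 weeks and 14.1% ± 0.846 at 10 weeks. In KO the share was 9.51% ± 0.733 at 6 weeks and 8.37% ± 1.20 at 10 weeks (SD, n = 3). Of 20 genes of branched-chain amino acid breakdown 3 shifted up, all carried by WT, with Bcat2 the foremost. Fatty acid oxidation had 2 positive calls and 1 negative among 36, the citrate cycle 2 positive among 20, and glycolysis and glucose uptake 4 positive among 25. Of all genes tested, 3.47% had a called positive shift and 2.96% a negative one. Slc2a1, the basal glucose transporter GLUT1, rose in KO from 19.3, 19.4 and 21.0 CPM to 36.4, 53.8 and 31.8 CPM and fell in WT (shift 2.11, SE 0.30, adjusted p = 0.0012). Cpt1a, the liver-type gate of mitochondrial fat entry, shifted down (-0.82, SE 0.16) and the muscle-type Cpt1b up (0.51, SE 0.13), the latter called in 6 of the 12 fits that left out a library.

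**Figure D4:**
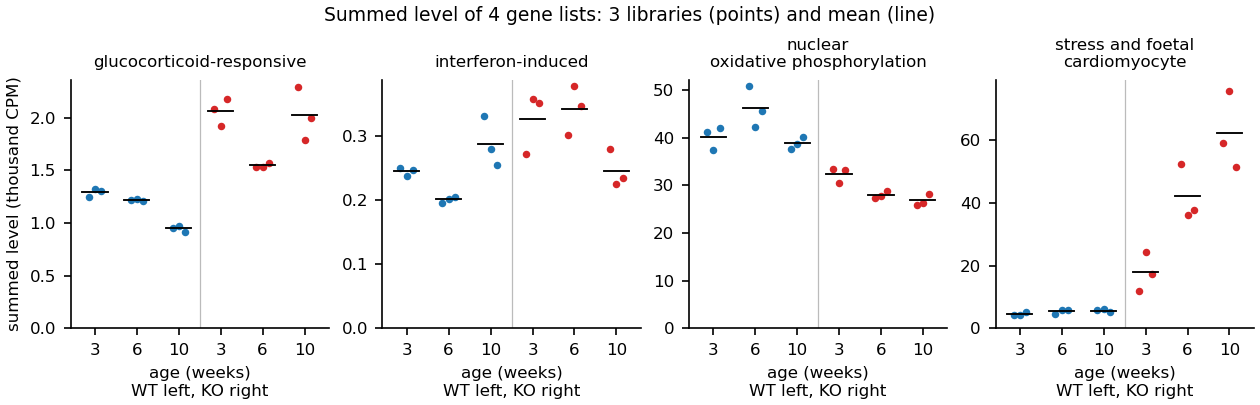
Summed level in CPM, on axes that start at 0, of 4 gene lists in all 18 libraries by age in weeks, with WT on the left and KO on the right. Points are libraries and lines are means of 3. Interferon-induced genes rise in WT and decline in KO between 6 and 10 weeks, glucocorticoid-responsive genes do the opposite, nuclear oxidative phosphorylation declines in WT, and stress genes are higher in KO at every age. Sums use library totals, with which the median log2 KO change of all genes was -0.23, against -0.0032 with TMM factors.

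Genes of excitation were divided between the genotypes. Of 29 ion channel and gap junction genes 3 shifted up and 4 down, against 3.47% and 2.96% of all genes tested. Kcnj11, the pore of the cardiac ATP-sensitive potassium channel, rose in WT from 93.3, 107 and 102 CPM to 192, 226 and 213 CPM and had no called change in KO, at 118, 127 and 145 CPM and 66.1, 86.1 and 132 CPM (shift -1.30, SE 0.23, adjusted p = 0.0044). Gja1, connexin 43, the main ventricular gap junction protein, fell in KO from 717, 643 and 644 CPM to 252, 361 and 412 CPM while WT stayed between 417 and 552 CPM (shift -0.82, SE 0.20, adjusted p = 0.024). Its call was lost in 6 of the 12 fits that left out a library. Kcna5, a voltage-gated potassium channel, shifted up by 1.15 (SE 0.16). Of 24 calcium-handling genes 5 shifted up, among them Casq2, calsequestrin, carried by WT (0.79, SE 0.16), and Slc8a1, the sodium-calcium exchanger, carried by KO (1.09, SE 0.24). The median of that list was 0.15 and turned to -0.07 with library totals. Slc8a1 lost its call without WT replicate 1 at 6 weeks, and also without the libraries rich in Myl4.

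Clock genes shifted in both directions, 2 up and 3 down of 20, against 3.47% and 2.96% of all genes tested. Nr1d1, the repressor REV-ERB alpha, fell in WT from 83.5, 121 and 122 CPM to 30.6, 31.8 and 28.2 CPM while KO stayed between 114 and 209 CPM (shift 1.75, SE 0.27, adjusted p = 0.0025). Cry1, a repressor within the core clock loop, rose in WT from 6.80, 8.39 and 4.69 CPM to 27.4, 23.5 and 24.1 CPM (shift -1.33, SE 0.28, adjusted p = 0.011). Per1, which answers to both the clock and glucocorticoids, fell in WT and rose in KO (shift 1.18, SE 0.20, adjusted p = 0.0022). Hlf, a clock output factor, fell in KO from 26.5, 32.5 and 31.3 CPM to 9.95, 7.17 and 13.5 CPM (shift -1.25, SE 0.22, adjusted p = 0.0030). The hour of tissue collection was not stated in the sources used here, and its part in these and the other results was not tested.

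Matrix and fibroblast genes had calls in both directions. Of 43 genes of extracellular matrix and fibrosis 1 shifted up and 2 down (median -0.21), beside 6.43% of all genes tested, and 33 were above WT in KO at 6 weeks and 30 at 10 weeks. In KO 14 of the 43 fell from 6 to 10 weeks and 1 rose. Mmp2, the gelatinase, and Col6a3, a collagen VI chain, shifted down (-0.81, SE 0.19 and -0.97, SE 0.23), and Timp1 up (2.49, SE 0.68); their calls were lost in 7, 4 and 10 of the 12 fits that left out a library. Of 14 fibroblast markers, Lum, the proteoglycan lumican, fell in KO from 78.0, 97.8 and 102 CPM to 42.8, 38.4 and 35.5 CPM (shift -1.04, SE 0.19, adjusted p = 0.0036), and Mfap5, a microfibril protein, fell in WT from 21.0, 19.4 and 23.0 CPM to 12, 11.5 and 10.6 CPM (shift 1.02, SE 0.22, adjusted p = 0.010).

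Markers of endothelial (14 tested), mural (10), B (7), T and NK (1), red (6), fat (5) and Schwann cells (8), neutrophils (1) and macrophages (13) had no called shift in edgeR. In these lists 10 of 65 had an unadjusted p under 0.05, DESeq2 called 2 and limma voom 0. Of all 15256 genes tested, 3563 had such a p in edgeR with RLE scaling factors. Of all genes tested, 6.43% were called in either direction. Atrial markers had 2 positive calls of 10, Nppa and Kcna5. Of 15 autophagy and ubiquitin ligase genes 3 shifted up. Gabarapl1, which helps build autophagosomes, and Bnip3, a receptor for mitophagy, were carried by KO (1.0, SE 0.13 and 0.97, SE 0.16). Endoplasmic reticulum chaperones had 1 negative call of 19, Dnajc3, which rose in WT (shift -0.98, SE 0.20). Complement and chemokine genes had 1 negative of 22 (C1s1, -0.61, SE 0.16), proliferation genes 1 positive of 29 (Ccnb2, 2.28, SE 0.66), p53 targets 1 positive of 15 (Cdkn1a) and imprinted growth genes 2 negative of 13 (Igf2, -0.81, SE 0.22, and Cdkn1c, -0.76, SE 0.21). Of the 12 fits that left out a library, Ccnb2 kept its call in 1, C1s1 and Cdkn1c in 4 each and Igf2 in 6.

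**Figure D5:**
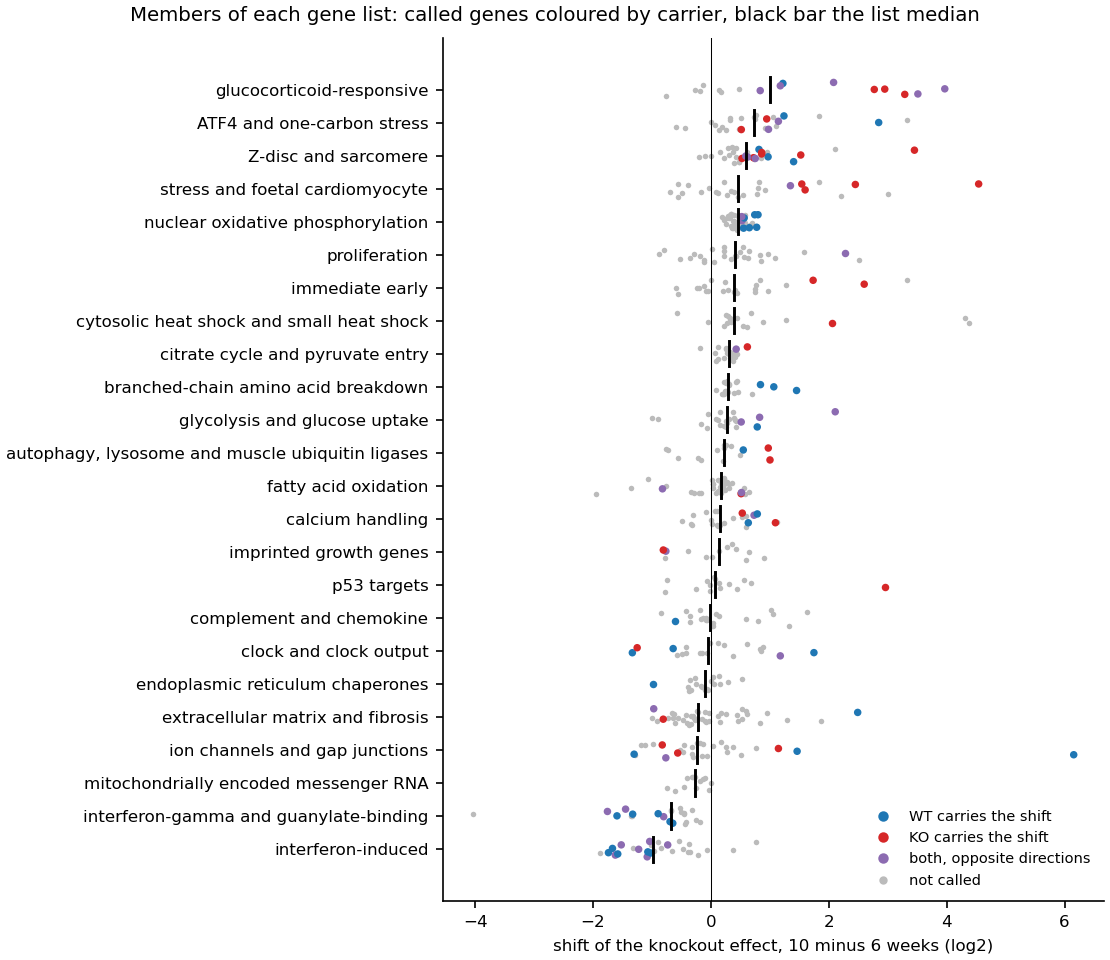
Each point is a gene of the named list, placed by its shift of the knockout effect (log2, 10 minus 6 weeks); called genes are coloured by carrier and the black bar is the list median. The interferon lists have medians of -0.99 and -0.68, with 2 of 28 and 0 of 23 genes above 0, and the glucocorticoid-responsive list has a median of 1.01, with 4 of 16 genes below 0.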

How the data were processed

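Left ventricular RNA was sequenced in 18 mouse libraries, and the authors deposited whole-number read counts per gene. Per the submitters' processing notes these came from Trimmomatic 0.36, STAR 2.5.2b and featureCounts of Subread 1.5.2 on GRCm38. Strand, annotation release and the handling of reads with several matches were not stated in the sources used here, so overlapping, antisense and duplicated genes are uncertain. Symbols and positions came from GENCODE M21 for 49056 of 49315 gene identifiers.

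The 12 libraries at 6 and 10 weeks (15873296 to 23001047 counts) were fitted in edgeR 4.0.16 (R 4.3.3) with TMM factors, filterByExpr (minimum count 10, minimum total 15), a robust quasi-likelihood fit and a term for each group. All p-values were adjusted by Benjamini-Hochberg over the 15256 genes tested. SE is the log2 value divided by the square root of F. The script was tested on simulated data. CPM levels used library totals.

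Named genes were, among called genes reaching 2 CPM in a group, the 12 largest shifts in each direction, the 8 smallest p per carrier and up to 3 called members per list and direction, predicted loci left out. Members and lists were chosen with earlier results of these data known. Alternatives covered scaling, test (DESeq2 1.42.0, limma 3.58.1), filter, libraries, replicate block, carrier ratio and the limit for low levels. Intervals of count ratios (95%) and floors cover counting error only.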

Additional observations from a re-analysis of the deposited data

Results flagged for a closer look

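The genotype effect differed between 6 and 10 weeks for 981 genes by the test of the difference itself. The strongest by p under each carrier were Kcnj14 (shift 6.15, carried by WT), Fkbp5 (3.29, carried by KO) and Grip2 (-2.09, carried by both), each called in all 12 fits that left out a library.

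Xist, outside the comparison, stood at 127 CPM in KO replicate 3 at 6 weeks, a library labelled male, and at or under 1.80 CPM in the other 17 libraries. Leaving that library out gave 609 called genes.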

How the results depend on the processing

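No called gene changed direction under any of the 22 alternatives run. Of 101 named and called genes, 64 were called in all of them and 37 lost the call in at least 1. With library totals in place of TMM, 269 genes shifted up and 1054 down, the KO change was called for 3241 and KO carried 620. DESeq2 called 1548 (934 up), of which KO carried 626 and both 464. Without a filter on low counts 1566 were called (882 up, 684 down), with 512 carried by WT, 597 by KO and 457 by both. A carrier ratio of 3 gave 457 to both, and a limit of 0.5 CPM for low levels gave 133 genes near 0 in place of 56.

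Leaving out each library in turn moved the calls from 448 (without KO replicate 2 at 6 weeks) to 2016 (without KO replicate 3 at 10 weeks). Calls up ran from 269 to 1055 and down from 179 to 961, those carried by WT from 152 to 424, by KO from 159 to 1068 and by both from 137 to 524. The WT change was called for 670 to 2065 genes, the KO change for 1047 to 3122, and KO against WT for 2785 to 4515 at 6 weeks and 3672 to 5245 at 10 weeks. In all 12 of these fits 372 of the 981 were called. RLE factors (1010), the fit of all 18 libraries (908), limma voom (930), mitochondrial genes left out (993) and a filter at 1 CPM (1000) moved the count by less.

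No pairing of the samples by replicate number was seen. Residuals of same-numbered libraries correlated between -0.097 and 0.10 over 18 pairs, and 2 of 12 libraries correlated best with their own number. Such correlations cannot show whether same-numbered samples were related or handled together. With the number as a block 1045 genes were called, 910 of the 981 among them.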
